A study of Mus musculus with 6 samples.

Results

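The genes described here are the interleukins, their receptors, the Janus kinases (JAKs), the STAT transcription factors and the SOCS feedback proteins, measured in mouse testis with and without the histone variant H3t. They were chosen by name: the protein-coding genes of the count table whose symbol begins with Il, Stat, Socs or Jak and a number, together with Cish, Osmr and Lif. The rule found 102 of the 54100 genes in the table, and 72 of them had 10 or more counts over the 6 libraries and were analysed. Of the other 30 members, 16 had 0 counts in all 6 libraries, among them Il4, Il6, Il10, Il12b and Il17a, and 14 had 1 to 9 counts. Just under the limit of 10 counts lay Il7r with 9 and Il12rb2 with 7, and just above it lay Il1rapl1, Il21, Il23r and Il27ra with 11 each.

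The data are 6 bulk RNA-seq libraries of sectioned frozen testis, 3 labelled H3t deletion and 3 labelled wild type (WT). The labels give no age, strain or details of the allele, so these are not stated for either group. The study asked how Leydig cells, which make testosterone, fare in testes in which sperm formation is disrupted. Each title carries its own number, but no label says that the libraries came from separate animals, and each p-value therefore reflects only how far these libraries spread, which may be technical.

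Interleukins are secreted signals that bind paired receptor chains on the cell surface. Receptors of the type that binds IL-6, IL-4 or IL-2 carry JAKs, which phosphorylate STATs, and the STATs then move to the nucleus and switch on genes, including those of the SOCS and CISH proteins, which in turn shut the receptor down. Receptors of the IL-1 and IL-17 families use other adaptors. In the testis, macrophages, Sertoli cells and Leydig cells are known sources and targets of such signals, and germ cells express some of these genes too.

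The 72 members were called about as often as any other gene, but more of them were higher and fewer were lower in the H3t deletion. At a false discovery rate of 0.05 over the 23144 genes tested with edgeR (quasi-likelihood test, p-values adjusted by Benjamini-Hochberg), 41 members were higher and 14 lower, and 17 were not called. These 55 calls are 76.4% of the members, against 74.0% of all genes tested. Higher calls made up 56.9% of the members, against 31.2% of all genes and 38.6% of the protein-coding genes tested. Lower calls made up 19.4% of the members, against 42.8% of all genes and 40.2% of the protein-coding genes. The median log2 change was 1.80 over the members, or 1.72 when the 7 members at 0 counts in a group are taken at their bound. It was -0.28 over all genes and 0.05 over the protein-coding genes tested. The libraries of the groups did not overlap for 54 members, or 75.0%, against 75.9% of all genes. Called and, by the fitted change, at least 4-fold higher were 28 members, or 38.9%, against 14.4% of all genes, and at least 16-fold higher were 6, or 8.33%, against 2.16%. Called and at least 4-fold lower were 11 members, or 15.3%, against 30.6% of all genes, and at least 16-fold lower were 9, or 12.5%, against 21.8%. Of the 16470 protein-coding genes tested, 2699 were called and at least 4-fold higher and 3940 at least 4-fold lower, so the contrast with these is smaller. Log2 changes are H3t deletion over WT throughout, and levels are CPM, that is counts scaled to library size and TMM factor. The H3t gene itself, listed as H3f4, had 0 counts in each deletion library against 390, 571 and 356 counts in WT replicates 1, 2 and 3.

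Much of the tissue's RNA differed between the groups, and the direction of a change in CPM is relative to that. Libraries held 8315960 to 8988520 counts in deletion testes and 8037826 to 10702930 in WT, and 1 count was worth 0.0886 to 0.0979 CPM in deletion testes and 0.118 to 0.153 CPM in WT. Summed over 6 spermatid markers, the deletion libraries held 4.70 to 49.8 CPM and the WT libraries 17290.2 to 19077 CPM, and all 6 fell. All 5 spermatocyte markers fell too, with sums of 201 to 232 CPM in deletion testes and 4995 to 5096 CPM in WT. Of 5 spermatogonial markers 4 rose (208 to 256 CPM in deletion testes, 68.2 to 90.2 CPM in WT), of 6 endothelial markers 4 (86.3 to 91.8 CPM in deletion testes, 37.9 to 40.3 CPM in WT) and of 5 peritubular myoid markers 4 (507 to 546 CPM in deletion testes, 174 to 209.9 CPM in WT). All 12 macrophage markers rose, with sums of 562 to 624 CPM in deletion testes and 110.0 to 126 CPM in WT. All 7 Leydig markers rose, with sums of 2574 to 3020 CPM in deletion testes and 307 to 335 CPM in WT, and all 9 Sertoli markers rose, with sums of 3914 to 4275 CPM in deletion testes and 830.0 to 967 CPM in WT. Of 6 T cell markers 2 rose and 2 fell, with sums of 3.94 to 6.74 CPM in deletion testes and 6.76 to 8.25 CPM in WT. Cd3d was at 0 counts in deletion testes and Cd3g at 0 counts in WT. Of the 4 B cell and 5 granulocyte and mast cell markers, only 3 had enough counts to be tested. The B cell sums were 0.275 to 0.620 CPM in deletion testes and 0.306 to 1.10 CPM in WT. The granulocyte and mast cell sums were 0.459 to 0.620 CPM in deletion testes and 0 to 0.473 CPM in WT. S100a8 and S100a9 were at 0 counts in all 6 libraries, and Tpsb2 was at 0 counts in WT. Mitochondrial genes took 21.6% to 22.7% of the counts in deletion testes and 5.59% to 6.44% in WT. In bulk tissue, fewer cells of a type and less RNA per cell cannot be told apart, and the part of these shifts in any result below was not tested.

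**Figure D1:**
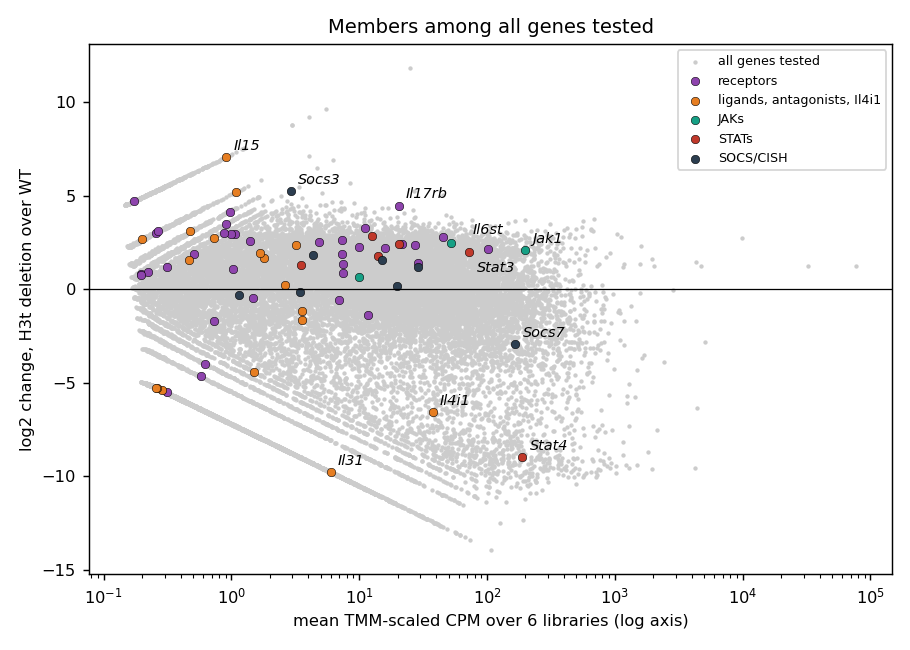
Log2 change (H3t deletion over WT) against mean TMM-scaled CPM over 6 libraries (log axis) for all genes tested (grey) and 71 of the 72 members, coloured by role. Most receptors, JAKs and STATs lie above 0, whereas Stat4, Il4i1, Il31 and Socs7 lie far below it. Points on the straight lower edge have 0 counts in deletion testes, and their fitted change is not a bound.

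The SOCS group held the largest rise among the intracellular members. Socs3, which blocks gp130-type receptors and is a classical STAT3 target, had 4.34, 5.59 and 7.14 CPM in deletion libraries and 0.153, 0.118 and 0.138 CPM in WT, where each library held 1 count. All deletion libraries lay far above all WT libraries. Its log2 change was 5.26 ± 0.58 (SE), with an adjusted p of 4.98e-08 by edgeR's test. Cish, a classical STAT5 target that damps cytokine receptors, had 6.65, 7.34 and 6.56 CPM in deletion testes and 1.53, 2.25 and 1.93 CPM in WT. It rose by 1.83 ± 0.33 (SE, adjusted p = 4.69e-05, edgeR).

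The promoters of these 2 genes are shown because both are textbook feedback targets of STATs and both rose. Each window runs from 250 bases before to 50 bases after the annotated start, from RefSeq on GRCm38.p6, and capitals mark the STAT core motif TTCNNNGAA. The motif reads the same on both strands.
Socs3 (chr11:117969317-117969616, minus strand): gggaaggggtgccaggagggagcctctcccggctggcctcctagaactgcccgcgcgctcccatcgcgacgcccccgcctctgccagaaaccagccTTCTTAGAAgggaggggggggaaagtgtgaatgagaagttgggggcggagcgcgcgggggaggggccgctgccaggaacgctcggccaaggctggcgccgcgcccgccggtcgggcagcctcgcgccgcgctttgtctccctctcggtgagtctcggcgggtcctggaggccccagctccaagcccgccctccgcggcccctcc
Cish (chr9:107296409-107296708, plus strand): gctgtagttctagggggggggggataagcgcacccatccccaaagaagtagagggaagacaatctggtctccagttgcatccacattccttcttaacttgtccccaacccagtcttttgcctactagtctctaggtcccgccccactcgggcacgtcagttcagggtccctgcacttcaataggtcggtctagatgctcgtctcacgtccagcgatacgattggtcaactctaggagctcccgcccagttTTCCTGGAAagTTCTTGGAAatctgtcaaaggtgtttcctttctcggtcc
The Socs3 window held 1 match and the Cish window 2. The motif occurred in 8.30% of all 32851 promoters of that collection, and of the 70 promoters of 57 analysed members that could be matched 7.14% did. The same letters, TTC and GAA, set 4 bases apart were found in neither window, in 6.95% of all promoters and in 14.3% of the members' promoters. Such matches describe letters in a window and not binding sites.

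Of the 8 SOCS and CISH genes 4 rose, 1 fell and 3 did not pass the test. Among all protein-coding genes tested 38.6% were higher and 40.2% lower, so this group is too small to set its rises apart. Socs6 and Socs4, whose proteins act on receptor tyrosine kinases among others, rose by 1.55 ± 0.20 and 1.21 ± 0.17 (SE). Socs5 overlapped between the groups, at 22.3, 19.7 and 20.9 CPM in deletion testes and a highest WT value of 21.8 CPM (log2 change 0.19 ± 0.17, SE, adjusted p = 0.328, edgeR). Socs2 averaged 3.24 ± 0.454 CPM in deletion testes and 3.59 ± 0.838 CPM in WT (SD, n = 3 each), and it did not pass either. Socs1, the inhibitor of interferon receptors, had 12, 12 and 9 counts in deletion replicates 1, 2 and 3 and 7, 9 and 12 counts in WT replicates 1, 2 and 3, too few to show a modest difference at this depth (log2 change -0.31 ± 0.62, SE).

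Socs7 went the other way. It had 33.9, 42.6 and 40.4 CPM in deletion testes and 277, 305 and 301 CPM in WT, a log2 change of -2.92 ± 0.11 (SE, adjusted p = 3.57e-16, edgeR). Per kilobase of exon its level was 5.37 CPM in deletion testes and 40.5 CPM in WT. Socs7 was thus the highest of the SOCS group per kilobase in WT, while in deletion testes Socs4 was slightly above it at 5.86 CPM per kilobase, against 2.52 in WT.

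**Figure D2:**
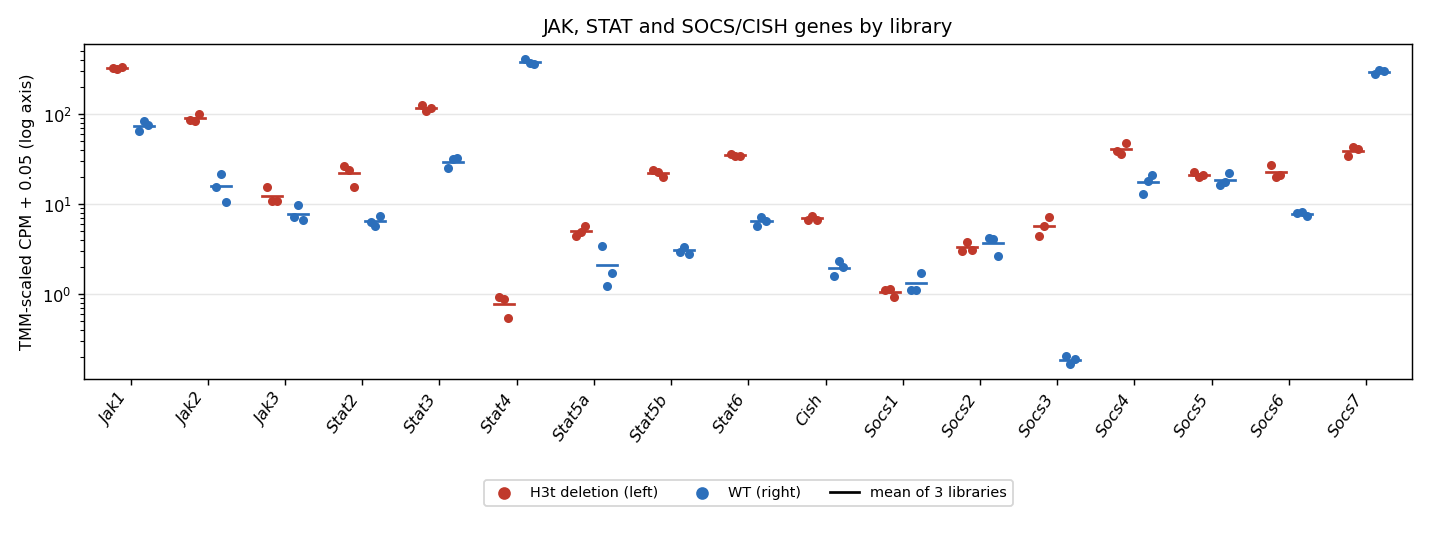
TMM-scaled CPM plus 0.05 (log axis) of the JAK, STAT and SOCS/CISH genes reported in the 3 H3t deletion libraries (left of each pair) and the 3 WT libraries (right), with bars at the mean. Stat4 and Socs7 are the members that fell, and Socs3 shows the widest rise.

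Of the 6 STATs reported, 5 rose and Stat4 was nearly lost, against 38.6% higher and 40.2% lower over all protein-coding genes. Stat4, which carries IL-12 signals in lymphocytes and is known to be expressed in germ cells of the mouse testis, had 0.886, 0.825 and 0.489 CPM in deletion testes, which were 10, 9 and 5 counts, and 404, 365 and 361 CPM in WT. Its log2 change of -8.96 ± 0.17 (SE, adjusted p = 1.82e-20, edgeR) is a 499-fold loss, and per kilobase its rank among the 72 members was 56 in deletion testes and 1 in WT. The share of Stat4 exons that overlaps the non-coding transcript Gm28177 on the same strand was 26.7%, and Gm28177 itself had 0 counts in all libraries. Of the 50-mers of Stat4 21.7% are shared with other genes.

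The rises of the other STATs differed in size. Stat3, the main STAT of gp130 receptors, was the highest of them per kilobase in both groups and had 126, 108 and 115 CPM in deletion testes and 24.8, 31.2 and 32.2 CPM in WT. It rose by 1.98 ± 0.12 (SE, adjusted p = 3.43e-12, edgeR). Stat5b and Stat5a, paired STATs downstream of growth hormone, prolactin and IL-2 receptors, rose by 2.87 ± 0.23 and 1.29 ± 0.40 (SE). Stat5b averaged 22.1 ± 1.93 CPM in deletion testes and 2.99 ± 0.284 CPM in WT (SD, n = 3 each), whereas Stat5a stayed low, at 4.34 to 5.68 CPM in deletion testes and 1.18 to 3.36 CPM in WT. Of the 50-mers of Stat5a 8.52% are shared with other genes, and slightly more of those of Stat5b. Stat5a overlaps Stat3 on the other strand over 1.01% of its exon length. Stat3 had 1419, 1179 and 1177 counts in deletion testes and 162, 264 and 233 in WT. Whether reads of Stat3 entered the Stat5a counts was not tested.

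Stat2, which carries type I interferon signals, had 26.3, 24.0 and 15.3 CPM in deletion testes and 6.26, 5.67 and 7.32 CPM in WT, and rose by 1.77 ± 0.23 (SE). Deletion replicate 1 was highest and deletion replicate 3 lowest in its group, and the groups did not overlap. Stat6, which serves IL-4 and IL-13, had 36.2, 33.8 and 33.9 CPM in deletion testes and 5.65, 7.09 and 6.35 CPM in WT, with a log2 change of 2.43 ± 0.18 (SE).

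All 3 JAKs were higher in deletion testes, as were 38.6% of all protein-coding genes tested. Jak1, which most interleukin receptors use, had 320.0, 312 and 329 CPM in deletion testes and 63.7, 82.6 and 75.4 CPM in WT, and rose by 2.11 ± 0.10 (SE, adjusted p = 5.30e-14, edgeR). Per kilobase of exon it was the most abundant of the 72 members in deletion testes, at 44.3 CPM. Jak2, the kinase of growth hormone, prolactin and IL-3 receptors, averaged 89.6 ± 9.58 CPM in deletion testes and 15.8 ± 5.46 CPM in WT (SD, n = 3 each) and rose by 2.49 ± 0.18 (SE).

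Jak3, the lymphocyte kinase that pairs with the common gamma chain, changed least. It had 15.2, 10.8 and 10.8 CPM in deletion testes and 7.03, 9.57 and 6.63 CPM in WT, a log2 change of 0.66 ± 0.24 (SE, adjusted p = 0.0170, edgeR). The call was lost without deletion replicate 1 (0.44), WT replicate 1 (0.59) or WT replicate 3 (0.56), and also with median-of-ratios scaling (0.49) and with DESeq2 (0.49). Jak3 shares 7.55% of its exon length with Insl3, the Leydig cell hormone, on the same strand, and Insl3 had 176, 151 and 182 counts in deletion testes and 17, 15 and 17 in WT. Whether reads of Insl3 entered the Jak3 counts was not tested.

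Most receptor chains with more than a few counts rose. Of 36 receptor genes, 21 were higher, 4 lower and 11 not called, with a median log2 change of 2.17, or 2.03 with the 2 genes at 0 counts in a group taken at their bound. Over all protein-coding genes tested, 38.6% were higher and 40.2% lower, with a median log2 change of 0.05. The 11 that were not called had mean levels under 2 CPM in both groups, apart from Il17rd, a membrane protein that dampens FGF signals, at 5.64 ± 1.47 CPM in deletion testes and 8.32 ± 1.38 CPM in WT (SD, n = 3 each).

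**Figure D3:**
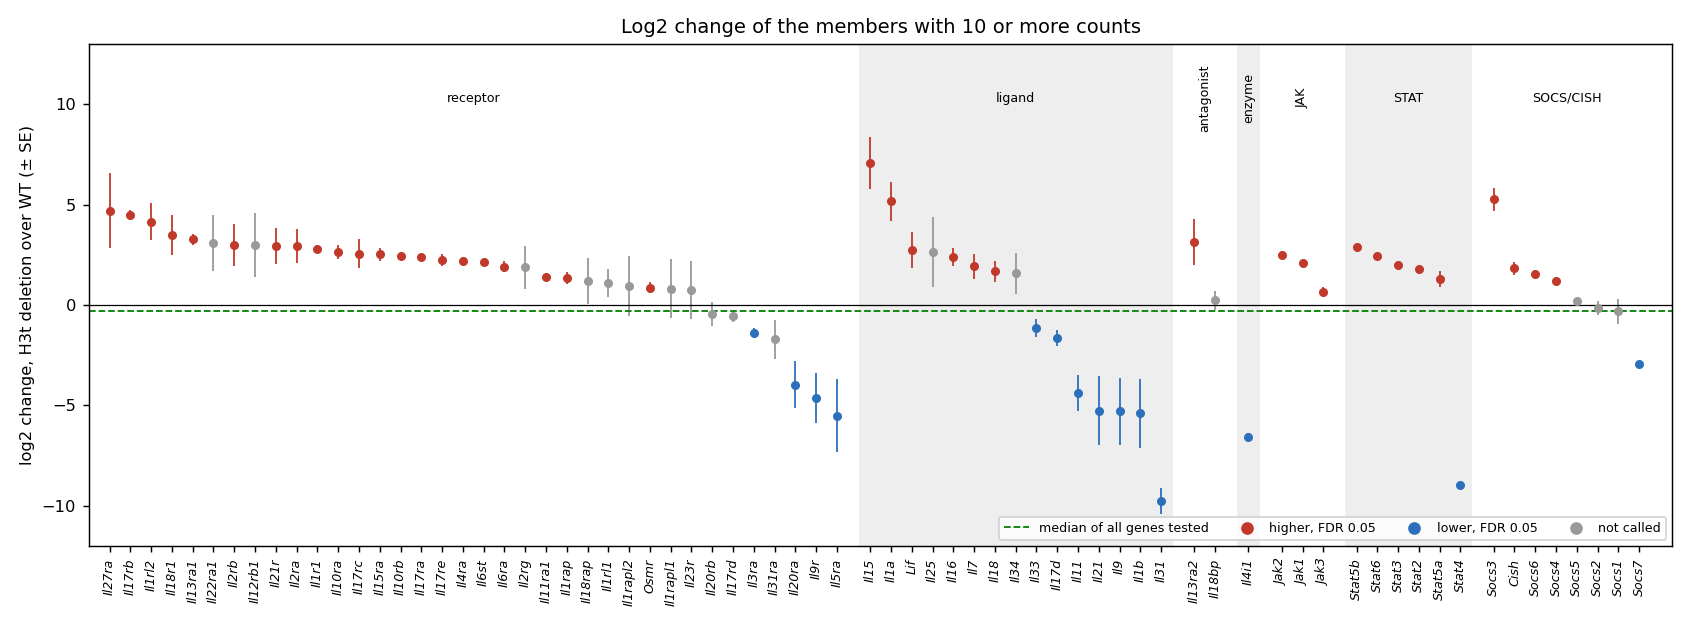
Log2 change (H3t deletion over WT, ± SE) of 71 of the 72 members by role, sorted within each role. Red points were higher and blue points lower at a false discovery rate of 0.05, grey points were not called, and the dashed line is the median of all genes tested at -0.28. For the 7 members at 0 counts in a group the fitted value is not a bound.

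The gp130 family rose unevenly. Il6st, which encodes gp130, the shared signalling chain for IL-6, IL-11, LIF and oncostatin M, was the highest receptor per kilobase in deletion testes, at 167, 155 and 173 CPM in deletion testes and 35.9, 38.1 and 36.3 CPM in WT. It rose by 2.17 ± 0.10 (SE, adjusted p = 4.77e-14, edgeR). Its partner Il6ra, the IL-6 binding chain, rose by 1.90 ± 0.27 and averaged 11.6 ± 2.14 CPM in deletion testes and 3.11 ± 0.0903 CPM in WT (SD, n = 3 each). Il11ra1, the IL-11 chain, rose by 1.42 ± 0.15, and 46.3% of its 50-mers are shared with other genes, so its counts are uncertain. The related copy Il11ra2 had 0 counts in all 6 libraries, and all of its 50-mers are shared. Osmr, the oncostatin M chain, had 11.3, 7.43 and 10.1 CPM in deletion testes and 5.96, 3.55 and 6.49 CPM in WT. Its log2 change of 0.86 ± 0.28 (SE, adjusted p = 0.00944, edgeR) was no longer called without deletion replicate 1 (0.69), without WT replicate 2 (0.62), or with DESeq2 (0.69).

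Of the IL-17 receptor family, Il17rb stood out. Il17rb, the receptor chain for IL-25 and IL-17B, had 46.3, 30.4 and 40.4 CPM in deletion testes and 1.38, 1.89 and 1.93 CPM in WT, a 22.2-fold difference with no overlap (log2 change 4.47 ± 0.25, SE, adjusted p = 4.18e-13, edgeR). Among the members its rank per kilobase was 6 in deletion testes and 34 in WT. Of its exon length 3.80% overlaps Actr8 on the other strand, a gene with 192 to 279 counts in deletion testes and 295 to 470 in WT. Il17ra, the shared chain of the family, averaged 46.1 ± 3.48 CPM in deletion testes and 8.80 ± 1.59 CPM in WT (SD, n = 3 each) and rose by 2.38 ± 0.17 (SE). Il17re, which binds IL-17C, rose by 2.25 ± 0.29 (SE). The IL-17B gene Il17b was at 0 counts in all 6 libraries, and Il25 had 12 counts in deletion replicate 1, 0 in deletion replicates 2 and 3, and 0, 0 and 1 in WT.

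Of 8 receptor genes of the IL-1 family tested, 4 rose and 4 did not pass the test. Over all protein-coding genes 38.6% were higher, so 4 of 8 does not set the family apart. Il1r1, the signalling receptor for IL-1, had 83.8, 84.3 and 71.2 CPM in deletion testes and 7.94, 12.4 and 13.4 CPM in WT, and rose by 2.81 ± 0.16 (SE, adjusted p = 1.25e-12, edgeR). Its co-receptor Il1rap rose by 1.34 ± 0.29 and averaged 10.7 ± 2.65 CPM in deletion testes and 4.23 ± 1.07 CPM in WT (SD, n = 3 each). Il1rl2, the IL-36 receptor, rose by 4.15 ± 0.92 on few reads, with 17, 31 and 12 counts in deletion testes and 1, 0 and 1 in WT, and its log2 change was 3.55 without WT replicate 2. Il18r1, the IL-18 receptor chain, had 4, 24 and 25 counts in deletion testes and 1, 0 and 2 in WT (log2 change 3.48 ± 0.99, SE, or 2.86 without WT replicate 2 and 4.37 without WT replicate 3). Il1rl1, the IL-33 receptor, was at 1.09 ± 0.71 (SE, adjusted p = 0.169, edgeR), and Il18rap, Il1rapl1 and Il1rapl2, with 18 or fewer counts each, did not pass. The decoy Il1r2 and the antagonist Il1rn had 4 and 3 counts over all libraries and could not be compared.

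The specific chains of the IL-4, IL-10, IL-13 and IL-15 receptors were higher. Il13ra1, the IL-13 chain that pairs with Il4ra, had 21.3, 16.1 and 22.7 CPM in deletion testes and 2.14, 2.25 and 1.79 CPM in WT, and rose by 3.27 ± 0.26 (SE). Il4ra rose by 2.18 ± 0.21, at 23.9 to 28.1 CPM in deletion testes and 4.02 to 6.90 CPM in WT. Il10rb, which IL-10 and IL-22 receptors share, and Il10ra, the chain specific to IL-10, rose by 2.42 ± 0.19 and 2.63 ± 0.35 (SE). Of the exon length of Il10rb 14.9% overlaps Gm21970 on the same strand, which had 0 counts. Il15ra, which presents IL-15 to neighbouring cells, rose by 2.53 ± 0.33 and had 7.89 to 8.91 CPM in deletion testes and 1.07 to 1.65 CPM in WT. The shared chains of the IL-15 and IL-2 receptors were less clear. Il2rg, the common gamma chain that IL-4 receptors use too, had 12, 10 and 5 counts in deletion testes and 0, 5 and 0 in WT, overlapped between the groups and did not pass (log2 change 1.88 ± 1.08, SE, adjusted p = 0.120, edgeR). Il2rb had 31, 20 and 1 counts in deletion testes and 3, 0 and 1 in WT. Its log2 change of 2.997 was called (adjusted p = 0.0148, edgeR), but not without deletion replicate 1 (2.25), WT replicate 2 (2.37) or WT replicate 3 (2.84), and it was 4.36 without WT replicate 1. The decoy receptor Il13ra2 had 8, 10 and 10 counts in deletion testes and 0, 2 and 0 in WT. Its log2 change of 3.12 was called (adjusted p = 0.0187, edgeR), but not without WT replicate 1 (2.68) or WT replicate 3 (2.63) nor with DESeq2, and it was 6.02 without WT replicate 2.

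**Figure D4:**
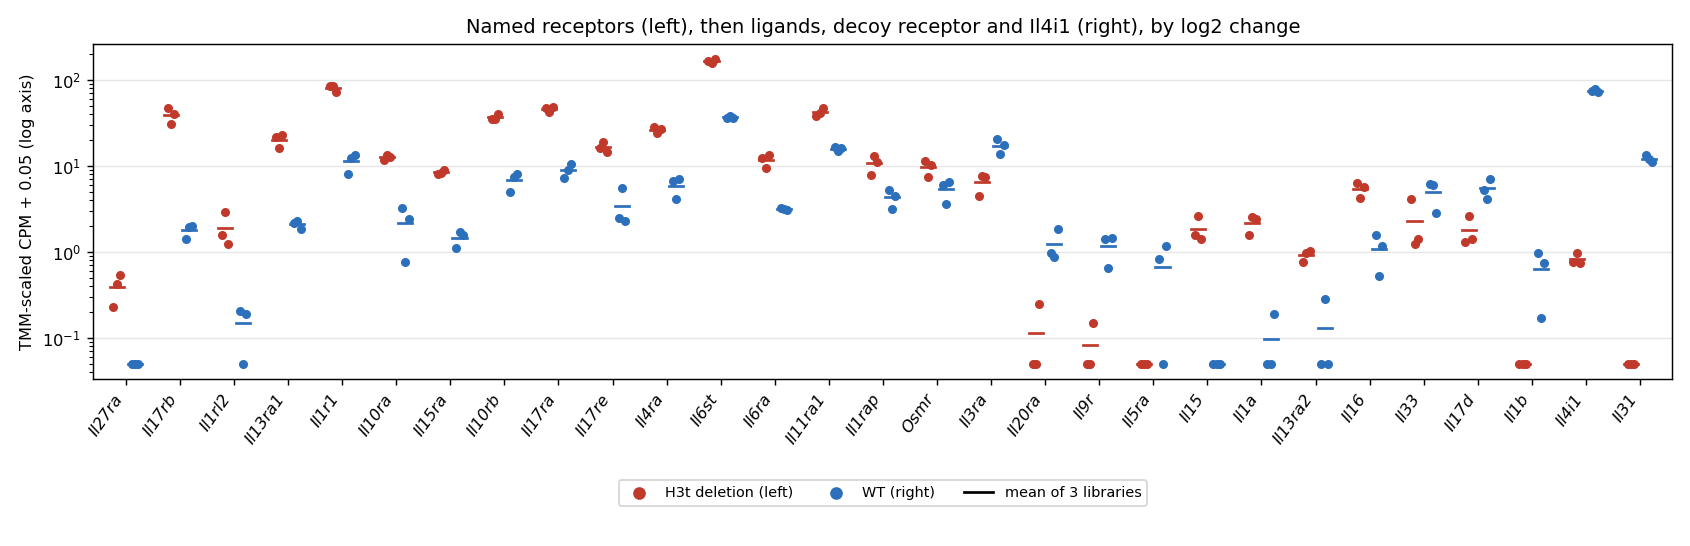
TMM-scaled CPM plus 0.05 (log axis) of the named receptors, ligands, the decoy receptor Il13ra2 and the enzyme Il4i1 in the 3 H3t deletion libraries (left of each pair) and the 3 WT libraries (right), with bars at the mean. Points at 0.05 have 0 counts, and Il17rb, Il4i1 and Il31 show the widest gaps among genes above 10 CPM in a group.

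The 4 receptors that fell were Il3ra, Il20ra, Il9r and Il5ra. Il3ra, the IL-3 chain, was the only one of them above 2 CPM, with 4.43, 7.61 and 7.44 CPM in deletion testes and 20.2, 13.6 and 17.4 CPM in WT (log2 change -1.39 ± 0.24, SE, adjusted p = 2.64e-05, edgeR). Il20ra had 0, 0 and 2 counts in deletion testes and 6, 7 and 13 in WT, and Il9r had 0, 0 and 1 in deletion testes and 9, 5 and 10 in WT. Their log2 changes of -3.97 and -4.64 were -6.41 and -6.33 without deletion replicate 3. Il5ra had 0 counts in deletion testes and 5, 0 and 8 in WT, at least 6.73-fold lower with a floor of 3 counts over the deletion libraries, and its call was lost without WT replicate 3. Il27ra, the IL-27 chain, had 2, 4 and 5 counts in deletion testes and 0 in WT, at least 2.55-fold higher, and its call was lost when any library other than deletion replicate 1 was left out and with DESeq2.

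Ligands were scarce and were called in both directions. Of 39 ligand genes, 15 had 10 or more counts, 14 had 0 counts in all libraries and 10 had 1 to 9. Of the 15 tested, 6 were higher, 7 lower and 2 not called, which is near the 38.6% higher and 40.2% lower over all protein-coding genes. None averaged above 6 CPM in deletion testes. Il16, a chemoattractant for CD4 cells, had 6.20, 4.13 and 5.68 CPM in deletion testes and 1.53, 0.473 and 1.10 CPM in WT, and rose by 2.39 ± 0.44 (SE). Of its exon length 15.3% overlaps Stard5 on the other strand, which had 225 to 301 counts in deletion testes and 14 to 43 in WT. Il15, which sustains natural killer and memory T cells, had 17, 28 and 14 counts in deletion testes and 0 in each WT library, at least 13.5-fold higher with a floor of 3 counts over the WT libraries (adjusted p = 7.50e-05, edgeR). The other ligands that rose were Il18, a partner of IL-12 in inducing interferon gamma, Il7, a survival factor of lymphocytes, and Lif, a gp130 ligand, at log2 changes of 1.68, 1.94 and 2.75. The call of Il7 was lost without deletion replicate 1 (1.51), that of Lif without deletion replicate 3 (2.17), and the change of Il7 was 2.93 without WT replicate 3. Il25 and Il34, a ligand of the CSF1 receptor, were not called.

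Il1a and Il1b went opposite ways at low counts. Il1a, the membrane and nuclear form of IL-1, had 17, 27 and 24 counts in deletion testes and 0, 0 and 1 in WT. It rose by 5.17 ± 0.97 (SE, adjusted p = 6.60e-05, edgeR), or by 7.33 without WT replicate 3. Of its exon length 11.2% overlaps Gm14023 on the other strand, which had 0 counts in deletion testes and 14, 29 and 18 in WT. Il1b, the secreted form made by activated macrophages, had 0 counts in deletion testes and 6, 1 and 5 in WT, at least 6.21-fold lower. Of its exon length 1.31% overlaps the antisense gene Il1bos, which had 0 counts in deletion testes and 3, 4 and 16 in WT, and the strand setting of the counting is not given in the sources used here.

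The ligand genes that fell included Il31 and Il17d. Il31, an itch-related cytokine of T cells, was at 0 counts in every deletion library and at 86, 101 and 79 counts in WT, at least 129.6-fold lower (adjusted p = 6.17e-11, edgeR). It overlaps Lrrc43 on the other strand over 3.97% of its exon length, and Lrrc43 had 0 counts in deletion testes and 657, 1081 and 842 in WT. Il17d fell by 1.64 on the log2 scale, to 1.24, 2.57 and 1.37 CPM in deletion testes against 5.19, 4.02 and 7.04 CPM in WT. Il33, an alarmin of stromal and endothelial cells, had 4.08, 1.19 and 1.37 CPM in deletion testes and 6.11, 5.91 and 2.76 CPM in WT, and the groups overlapped. Its log2 change of -1.14 ± 0.46 (SE, adjusted p = 0.0305, edgeR) was -1.97 without deletion replicate 1 and was not called when deletion replicate 2 or 3 or WT replicate 1 or 2 was left out (-0.84 to -0.98). Il11, a gp130 ligand, had 4, 0 and 0 counts in deletion testes and 32, 19 and 11 in WT (log2 change -4.40). Its change was -7.66 without deletion replicate 1 and -3.82 without WT replicate 1. Il9 and Il21, cytokines of T cells, were at 0 counts in deletion testes and at 12 and 11 counts over the WT libraries, at least 5.59-fold and 5.66-fold lower.

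A further large loss was that of a gene named for IL-4 induction. Il4i1, a secreted L-amino acid oxidase and no cytokine, had 0.709, 0.917 and 0.685 CPM in deletion testes and 74.3, 77.8 and 71.1 CPM in WT, a 94.8-fold loss (log2 change -6.57 ± 0.20, SE, adjusted p = 2.05e-17, edgeR). Its annotated exons overlap those of other genes over 86.3% of their length, mostly those of Tbc1d17 on the other strand, and 77.1% of its 50-mers are shared. Tbc1d17 had 135, 140 and 149 counts in deletion testes and 65, 92 and 98 in WT, and Nup62, which shares 2.38% of the exon length on the same strand, had 393, 381 and 382 counts in deletion testes and 1023, 1504 and 1144 in WT. The counts of Il4i1 are therefore uncertain.

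Ratios of 2 members within a library need no scaling factor. With 1 count added to each gene, the log2 ratio of Socs3 to Stat3 was -4.36 ± 0.43 in deletion testes and -6.76 ± 0.36 in WT (SD, n = 3 each), a difference of 2.40. Socs3 held 1 count in each WT library, so the size of this difference depends on the added count. The SD in WT reflects the counts of Stat3 alone. The log2 ratio of Il17rb to Il17ra was -0.26 ± 0.22 in deletion testes and -2.25 ± 0.09 in WT. The other ratios moved down in deletion testes. Jak3 to Jak1 was at -4.71 ± 0.29 in deletion testes and -3.24 ± 0.21 in WT. Cish to Stat5b was at -1.67 ± 0.13 in deletion testes and -0.63 ± 0.20 in WT, and Il6ra to Il6st was at -3.83 ± 0.19 in deletion testes and -3.51 ± 0.08 in WT. The deletion and WT libraries did not overlap in any of these 5 ratios. The exact permutation test (two-sided) gave p = 0.1 for each, which is the lowest value possible with 3 against 3, and 0.1 once adjusted over the 7 ratios computed. The other 2, of Il1r2 and Il1rn to Il1r1, rest on 4 and 3 counts of the first gene and say nothing of it.

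When libraries were scaled to an equal level of a cell type's markers, most rises were gone. With Sertoli markers at an equal level, 5 members were higher and 28 lower, with macrophage markers 4 and 33, and with Leydig markers 3 and 43. Such a scaling changes only the library factors, so all genes shifted down by about the same amount, less so where a group had 0 counts. Of all genes, 73.7%, 78.0% and 84.1% were called at Sertoli, macrophage and Leydig level. Their median log2 change was -2.63, -2.93 and -3.45, against -0.55, -0.86 and -1.39 over the members. The members still higher in all 3 were Socs3, Il17rb and Il15. Their log2 changes were 3.01, 2.14 and 6.49 at Sertoli level, 2.74, 1.81 and 6.49 at macrophage level, and 2.17, 1.28 and 6.42 at Leydig level, where the fitted value of Il15 is no bound. Il1a was higher at Sertoli (3.07) and macrophage (2.82) level, and Il13ra1 at Sertoli level (0.93). Stat3, gp130 and Jak1 did not keep a rise: Stat3, Il6st and Jak1 were at -0.38, -0.21 and -0.25 at Sertoli level and at -1.22, -1.03 and -1.09 at Leydig level. Median-of-ratios scaling gave 40 members higher and 15 lower, upper-quartile scaling 43 and 13, and no scaling factor 46 and 13. Under these 3 the median log2 change of all genes was -0.44, 0.18 and 0.35.

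**Figure D5:**
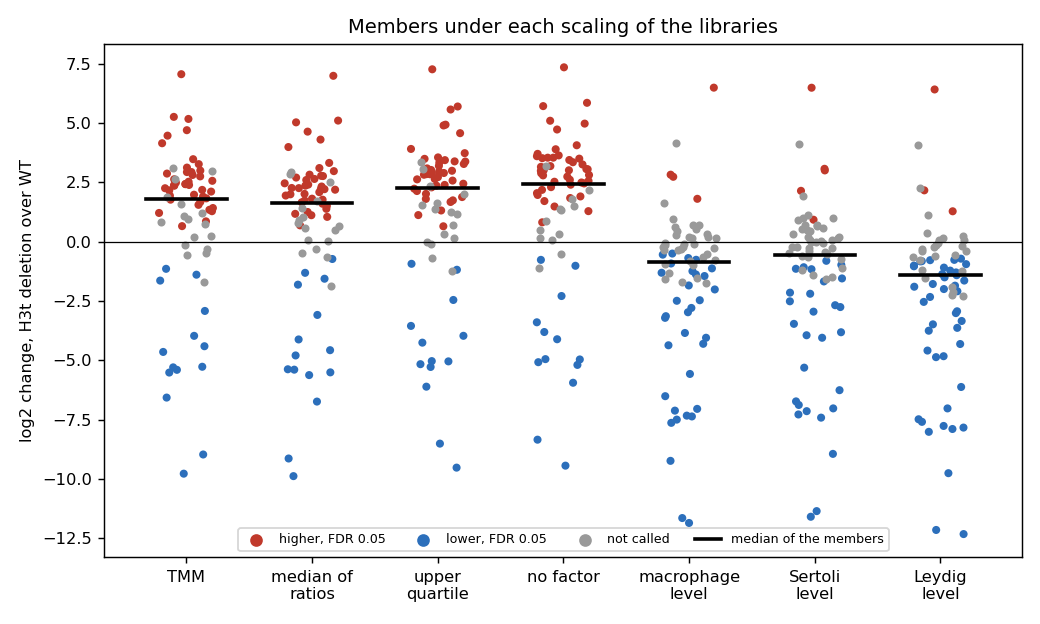
Log2 change (H3t deletion over WT) of the 72 members under TMM and 6 other scalings of the libraries, with a bar at the median of the members. The median was 1.80 with TMM and 2.43 with no factor, and lay at -0.86, -0.55 and -1.39 when macrophage, Sertoli and Leydig markers were set to an equal level. The median of all genes tested, not drawn, was then -2.93, -2.63 and -3.45 in the same order.

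Other genes of the same pathways moved both ways, and their calls depended on the scaling. Of 5 interferon receptor genes 4 rose, namely Ifngr2, Ifngr1, Ifnar1 and Ifnar2 at log2 changes of 0.98, 2.12, 1.38 and 2.92, against a share of higher calls of 38.6% over protein-coding genes. None of the 5 was called higher at Sertoli, macrophage or Leydig level, where 2, 3 and 3 were lower. Over all genes the median log2 change at these levels was -2.63, -2.93 and -3.45. Of 21 further genes of gp130-type and related cytokine receptors and their ligands, 16 had 10 or more counts, and of these 6 rose and 2 fell. The rises are near the 38.6% higher over protein-coding genes, of which 40.2% were lower. The called ones with the highest CPM included Lifr, the LIF receptor that pairs with gp130, at 427 ± 29.5 CPM in deletion testes and 77.3 ± 4.88 CPM in WT, and Prlr, the prolactin receptor, at 442 ± 46.3 CPM in deletion testes and 48.3 ± 2.98 CPM in WT (SD, n = 3 each). Crlf3 rose by 2.36. Ghr, the growth hormone receptor, was at 0.68, and its call was lost without any library but deletion replicate 2 or WT replicate 1, and with median-of-ratios scaling and DESeq2. With upper-quartile or no scaling, 12 of these 16 genes rose and 1 fell, whereas at Sertoli level 2 rose and 7 fell, at macrophage level 2 rose and 10 fell, and at Leydig level 12 fell. Their median log2 change at Sertoli, macrophage and Leydig level was -1.44, -1.75 and -2.33, above that of all genes, as with TMM.

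Regulators of JAK and STAT signalling inside the cell were called with TMM in shares near those of all protein-coding genes, of which 38.6% were higher and 40.2% lower. TMM gave 6 of 16 such genes higher and 7 lower, upper-quartile scaling 8 and 6, and no scaling factor 10 and 5. With Sertoli, macrophage and Leydig markers at an equal level none was higher and 12, 14 and 15 were lower. Their median log2 change at these levels was -2.52, -2.80 and -3.34, near the -2.63, -2.93 and -3.45 of all genes. Pias2 and Pias1, SUMO ligases that bind STATs, were at log2 changes of -3.44 and -2.21, while the phosphatase Ptpn11 and the exchange factor Sos1, both of the RAS pathway, rose by 2.02 and 1.46. Of 13 adaptors of IL-1 and IL-17 receptors 7 rose and 3 fell, and at Sertoli, macrophage and Leydig level none rose and 9, 9 and 11 fell. Their medians at those levels were -1.92, -2.20 and -2.77, above those of all genes, as with TMM. Tab2 rose by 1.11, Tollip and Irak3, which restrain IL-1 and Toll-like receptor signals, fell by 1.57 and 3.27 on the log2 scale, and Map3k7 was at 0.27, a call lost without any one library other than deletion replicate 1. Genes known as STAT targets mostly rose, 11 of 14, and 1 fell, against 38.6% higher and 40.2% lower over all protein-coding genes. Of these targets, 4 were higher and 3 lower at Sertoli level, 4 and 5 at macrophage level and 3 and 8 at Leydig level. The median log2 change of the STAT targets was 2.42 with TMM, and it was 0.08 at Sertoli, -0.24 at macrophage and -0.77 at Leydig level. It lay above the median of all genes at each level, as with TMM. Such a scaling moves all genes by about the same amount. Mcl1, a survival protein, rose by 0.41, Serpina3n, an acute-phase protease inhibitor, by 5.25 and Cebpd, an acute-phase transcription factor, by 2.61, whereas Bcl2l1, another survival gene, fell by 1.42 on the log2 scale.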

How the data were processed

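Per the labels' protocols, RNA was taken from frozen sections of mouse testis and made into libraries with the SMART-Seq Stranded kit. The authors deposited raw counts of reads per Ensembl gene, made with Trim Galore, HISAT2, GRCm38 and featureCounts, per the submitters' processing notes. The sources used here do not give their versions, the annotation release or the strand setting, so reads of overlapping and antisense genes cannot be assigned with certainty. No value column was left unused. Exon lengths, overlaps and shared 50-mers came from GENCODE M21 on GRCm38, which holds all 102 members.

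The software was edgeR 4.0.16 under R 4.3.3. All 23144 genes with 10 or more counts over the 6 libraries were kept and scaled by TMM (factors of 1.23 to 1.26 in the deletion and 0.791 to 0.814 in WT). Calls are at a false discovery rate of 0.05 (edgeR quasi-likelihood test, Benjamini-Hochberg over all genes kept). The SE is the log2 change divided by the square root of the test's F. Where a group had 0 counts, its level was set to 3 counts over its libraries (0.0926 CPM for the deletion, 0.135 for WT), and the resulting bound is given as at least so many fold; it covers counting error only. Libraries of a group differed by more than sampling noise (chi-square over its degrees of freedom 4.75 to 7.32), so each was counted as its own library. For ratios an exact permutation test (two-sided) was used. The steps were tested on simulated data with few genes changed, so that test does not cover scaling between groups as unlike as these.

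Values of 1 member and of the ratio with it are not reported here, though it stays in the counts and the fit. Otherwise named are the JAK, STAT and SOCS genes, every called ligand and receptor with a mean of at least 2 CPM, the 4 most abundant, and the 3 largest rises and falls of each, and the 4 most abundant called genes of each pathway list. Named outside this rule, after their values were seen, were members at or near the limit of counts, Il4, Il6, Il10, Il12b, Il17a, Il17b, Il25, Il17rd, Il18, Il7, Lif, Il34, Il11, Il9, Il2rg, Il2rb, Il2ra, Il21r, Il17rc, Il18r1, Il1rl1, Il18rap, Il1rapl2, Il11ra2, Il12rb2, Il7r, Il1rapl1, Il21, Il23r, Il1r2 and Il1rn, and genes that overlap a member. The members and lists were chosen with earlier results of these data known. Alternatives were other scalings and filters, DESeq2 1.42.0, a test against a 1.5-fold change, a false discovery rate of 0.01 and each library left out in turn. Levels by marker list set the mean log2 CPM of the list equal in all libraries.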

Additional observations from a re-analysis of the deposited data

How the results depend on the processing

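No paired analysis was possible because the labels give no replicate numbers shared between the groups. Across the alternatives, counts of members called, higher and lower stayed within 1.5 times of 55, 41 and 14, apart from these. With marker lists at an equal level, 33 members were called at Sertoli level, and members higher and lower numbered 5 and 28 at Sertoli, 4 and 33 at macrophage and 3 and 43 at Leydig level. The median log2 change of all genes was -2.63 at Sertoli, -2.93 at macrophage and -3.45 at Leydig level. With edgeR's filterByExpr, which kept 49 members and 17038 genes, 8 were lower. Over the 44 members with no exonic overlap and under 10% shared 50-mers, an alternative chosen after seeing the data, 31 were called, 23 higher and 8 lower; both of these keep fewer members. Leaving out each library in turn gave 51 to 55 calls, 37 to 41 higher and 13 to 15 lower. The log2 changes of reported members that turned negative at Sertoli level were Cish -0.51, Il11ra1 -0.98, Il16 -0.0029, Il17re -0.038, Il1rap -1.07, Il4ra -0.22, Il6ra -0.46, Il6st -0.21, Jak1 -0.25, Jak3 -1.67, Osmr -1.55, Socs4 -1.16, Socs5 -2.19, Socs6 -0.80, Stat2 -0.60, Stat3 -0.38, Stat5a -1.14, and, outside the naming rule, Il7 -0.43 and Il18 -0.64. The log2 changes that turned negative at macrophage level were Cish -0.81, Il10ra -0.052, Il10rb -0.22, Il11ra1 -1.24, Il15ra -0.11, Il16 -0.29, Il17ra -0.28, Il17re -0.36, Il1rap -1.31, Il4ra -0.51, Il6ra -0.76, Il6st -0.50, Jak1 -0.54, Jak2 -0.13, Jak3 -2.01, Osmr -1.84, Socs4 -1.45, Socs5 -2.49, Socs6 -1.12, Stat2 -0.92, Stat3 -0.69, Stat5a -1.38, Stat6 -0.22, and, outside the naming rule, Il7 -0.77, Il18 -0.95 and Il17rc -0.092. The log2 changes that turned negative at Leydig level were Cish -1.36, Il10ra -0.55, Il10rb -0.78, Il11ra1 -1.78, Il15ra -0.66, Il16 -0.78, Il17ra -0.82, Il17re -0.94, Il1r1 -0.38, Il1rap -1.85, Il4ra -1.01, Il6ra -1.29, Il6st -1.03, Jak1 -1.09, Jak2 -0.71, Jak3 -2.53, Osmr -2.33, Socs4 -1.99, Socs5 -3.01, Socs6 -1.64, Stat2 -1.41, Stat3 -1.22, Stat5a -1.90, Stat5b -0.32, Stat6 -0.76, and, outside the naming rule, Lif -0.37, Il7 -1.21, Il18 -1.50, Il17rc -0.58, Il21r -0.16, Il2ra -0.21 and Il2rb -0.060. The sign turned for Socs1 and Socs2, neither called with TMM, at 0.15 and 0.31 with upper-quartile scaling and 0.31 and 0.48 with no scaling factor. Each scaling moves all genes by about the same amount, and a sign turned where the TMM change was smaller than that. No cause beyond this change of scaling was tested. Of the 46 named members, 4 lost their call with DESeq2, 3 against a 1.5-fold change and 5 at a false discovery rate of 0.01, and Il33 lost it with upper-quartile and no scaling. All 7 ratios kept their direction with each library left out and with 0.5 or 5 counts added in place of 1. Depth limits the members with few counts, for which 1 library can decide a call.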
